A study of Mus musculus with 8 samples.

Results

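Part of the mouse array measures stretches of the genome outside its gene list: 16181 of its 55681 probes carry, in place of a gene name, a genomic interval and a strand, F for forward or R for reverse. Of these interval probes, 6679 (41.3%) were marked by the scanner software as well above background on all 8 arrays of the series, and these detected probes are described here. Their choice used the detection marks of the 8 arrays and no difference between groups. The detected probes lay in 2466 of the 3540 intervals, and 606 intervals were detected on both strands. The kidneys came from CD-1 mice, an outbred stock, that had received tacrolimus, a calcineurin inhibitor given against transplant rejection, at 1 mg/kg per day for 28 days (TAC, 4 samples), or physiological serum (CTL, 4 samples). No genetic change is named for either group, and each sample is total RNA of kidney. The labels number the samples as replicates without naming animals, so a p-value here speaks only of how these samples vary, which may be technical.

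Long intergenic noncoding RNAs are transcripts of RNA polymerase II that arise between protein-coding genes and are not translated. Many are spliced and polyadenylated like messenger RNAs, others are unstable products of promoters and enhancers, and some probes placed between annotated genes meet unannotated ends of messenger RNAs. A few are well known: Malat1 and Neat1 are abundant nuclear transcripts, Neat1 being the scaffold of paraspeckles, and Meg3 is transcribed from an imprinted cluster. The nuclear exosome degrades many of the unstable ones.

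The probes are 60-base DNA oligonucleotides, and the sequences below are those that the results turn on, written 5′ to 3′ with mm9 as the build of all positions. The first is the called probe of chr9:24617562-24625262, reverse strand, with the lowest adjusted p. The second lies in chr1:175653557-175671940, reverse strand, and shares the 42 bases in capitals with the array's own probe for Ifi207. The third had the lowest p among probes that were lower under tacrolimus, in chr2:60038543-60046318, forward strand. The fourth, in chr11:60728207-60745369, reverse strand, and the fifth and sixth, from the reverse and forward strands of chr1:182686731-182709331, carry simple AC or TG repeats, in capitals. The last pair holds the mature arms of the microRNA let-7c-2, in capitals, within chr15:85412264-85549139, forward strand.
interval near Cypt4, R: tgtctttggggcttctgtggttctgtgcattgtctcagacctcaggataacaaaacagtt
interval at Ifi207, R: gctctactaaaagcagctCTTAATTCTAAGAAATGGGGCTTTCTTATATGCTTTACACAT
interval near Baz2b, F: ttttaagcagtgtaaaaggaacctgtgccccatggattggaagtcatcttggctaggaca
interval near Map2k3os, R: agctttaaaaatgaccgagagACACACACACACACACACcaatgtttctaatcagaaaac
interval near Acbd3, R: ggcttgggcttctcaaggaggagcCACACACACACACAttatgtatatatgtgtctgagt
interval near Acbd3, F: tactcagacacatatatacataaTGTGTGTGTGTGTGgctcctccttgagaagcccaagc
let-7c-2, 5p arm: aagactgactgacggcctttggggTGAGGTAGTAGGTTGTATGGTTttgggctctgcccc
let-7c-2, 3p arm: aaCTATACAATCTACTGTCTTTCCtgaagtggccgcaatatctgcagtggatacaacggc

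Each array gave 1 value per probe, called the level here: the log2 of its background-subtracted intensity, from which the 75th percentile over that array was taken away. A level of 0 therefore equals the array's 75th percentile, and levels of different probes do not rank RNA amounts because probes differ in how well they bind. The share of spots well above background was 64.0% to 69.8%. All 8 arrays were on 1 slide, with the controls in its first row and the tacrolimus samples in its second, so the effect of the row and that of the treatment cannot be told apart. Control and tacrolimus samples of the same number lay in the same column of the slide. Kidney was borne out by its markers: all 10 tubule genes tested, among them Slc34a1, the phosphate transporter of the proximal tubule, and Umod of the thick ascending limb, were well above background on all 8 arrays. Of 8 macrophage genes tested, 7 were higher at an unadjusted p under 0.05, and their mean deviation from the control mean was between -0.30 and 0.32 on the control arrays and between 0.75 and 1.71 on the tacrolimus arrays. All 6 proliferation genes were higher at that threshold, with -0.52 to 0.40 on control and 0.95 to 1.59 on tacrolimus arrays. Of 6 adipocyte genes, 5 were higher, with control replicate 2 at 2.19, the other control arrays at -0.88 to -0.47, and the tacrolimus arrays at 2.09 to 5.38, while 2 of the 6 were well above background on all 8 arrays. Of 7 T cell genes, 3 were higher, with -0.33 to 0.55 on control and 0.21 to 0.82 on tacrolimus arrays. Of 6 fibroblast and smooth muscle genes, 2 were higher, Pdgfra and the collagen gene Col1a1, with -0.06 to 0.13 on control and 0.19 to 0.74 on tacrolimus arrays. The part of these cell types in the differences below was not tested, and in whole kidney the number of cells of a type and the RNA per cell cannot be told apart.

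The detected probes were spread over 20 chromosomes, with 154 on chromosome 19 and 476 on chromosome 2. The intervals had a median length of 9901.5 bases, with a shortest of 62 and a longest of 533972 bases. Forward probes numbered 3177 and reverse probes 3502. An interval and strand held between 1 and 10 detected probes, and 1347 of the 3072 combinations of interval and strand held 1. The probes had 45.8% ± 8.60 G and C (SD over probes), against 42.6% ± 7.06 for 26048 other probes detected on all 8 arrays and 42.2% for the 5649 interval probes above background on no array. The polyadenylation signal AATAAA, read on the probe's strand, was present in 3.92% of the detected probes, in 3.98% of the interval probes above background on no array and in 14.1% of the other detected probes.

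Some of the intervals called intergenic met genes, as far as the array's own gene probes show it. Overlap with exons and introns was not analysed here. Of the 3072 combinations of interval and strand with a detected probe, 225 (7.32%) also held a probe of a named gene on the same strand, and 148 (4.82%) held one on the opposite strand. The nearest tested gene probe lay a median of 26928.5 bases away. Against RefSeq promoter windows of the GRCm38.p6 assembly, which run from 250 bases before to 50 bases after a gene's start, 48 probes shared at least 30 bases with the sense strand of 41 genes. Among these was Gas5, the host of several small nucleolar RNAs. On the antisense strand 84 probes matched the windows of 77 genes, among them Tug1. They are therefore called interval probes in what follows.

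The extent of detection did not differ beyond the spread between arrays. On the 4 control arrays 55.9%, 49.5%, 47.7% and 49.7% of all 16181 interval probes were well above background, and on the 4 tacrolimus arrays 54.3%, 49.6%, 51.2% and 47.0%. The groups overlapped, at 50.7% ± 3.61 for control and 50.5% ± 3.07 for tacrolimus (SD, n = 4), with p = 0.943 in an exact two-sided permutation test whose smallest possible p is 0.0286. Among 29796 probes with a RefSeq accession the shares were 74.9% ± 1.83 and 75.8% ± 1.38 (SD, n = 4; exact two-sided permutation p = 0.4). A further 5649 interval probes were above background on no array and 3853 on 1 to 7 arrays.

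The margin of detection was narrow in level. The 3 dimmest detected probes lay in chr6:145936225-145965575, reverse strand, chr2:94008913-94019798, forward strand, and chr3:113296823-113298691, reverse strand. Their levels ran from -6.34 to -5.50, from -5.95 to -5.25 and from -5.93 to -5.33 over the 8 arrays. The 3 brightest probes that missed the rule on a single array did so because 1 array stood far below the others. In chr13:9185198-9185778, forward strand, tacrolimus replicate 2 was at -7.35 while the other 7 arrays were between -3.68 and -2.16. In chrX:47890565-47915775, forward strand, control replicate 2 was at -5.94 with the others between -3.52 and -2.96. In chr12:89479525-89503525, forward strand, tacrolimus replicate 3 was at -6.26, control replicate 3 at -4.89 and the others between -2.10 and 0.54.

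The 6 probes with the highest mean levels differed little between the groups. Both probes of chr19:5801802-5802597, reverse strand, belonged to these. The nearest gene probe, NEAT2, an older name of Malat1, was 6238 bases away on the same strand. The first had levels of 8.25, 8.53, 8.58 and 8.50 in control and 8.32, 8.33, 8.61 and 8.76 in tacrolimus kidneys, and the second had 7.14, 7.41, 7.52 and 7.34 against 7.24, 7.25, 7.49 and 7.73. The groups overlapped in both, with differences of 0.04 ± 0.13 and 0.08 ± 0.14 (standard error). Of the other 4, those in chr14:78924115-78938125, forward strand, chr6:83368261-83407280, forward strand, and chr12:73838608-73862621, reverse strand, were rich in G and C at 83.3%, 78.3% and 78.3%, and their differences were -0.02, -0.13 and -0.13. The last, in chr17:17481706-17482457, reverse strand, had a difference of -0.11 and carries AATAAA.

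Whether interval transcripts respond to tacrolimus was asked with 1 model across all probes: limma's moderated test on all 8 arrays, with Benjamini-Hochberg adjustment over 36489 probes, of which 6676 were detected interval probes. A difference is tacrolimus minus control on the log2 scale, and a probe is called at an adjusted p under 0.05. Under that rule 2 interval probes were called, both higher, where 37 of all probes tested (0.101%) were called with 33 of these higher (0.0904%) and 4 lower (0.011%). Before adjustment, with p under 0.05, lower values were the more frequent: 748 interval probes (11.2%) were lower and 166 (2.49%) were higher, where 7.88% of all probes tested were lower and 6.42% were higher. The 4 control and 4 tacrolimus arrays did not overlap for 449 interval probes that were lower (6.73%) and 76 that were higher (1.14%), against 5.4% and 3.89% of all probes tested. Of the interval probes with an unadjusted p under 0.05, 81.8% were lower, against 55.1% over all probes tested. With each array scaled to its median the share became 91.9%.

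The shift was small for each probe and wide over probes. The median difference of the interval probes was -0.11, and 69.2% were below 0, where the medians of all tested probes and of the 26048 other detected probes were -0.06 and -0.05. On single arrays, the median deviation from the control mean over the interval probes was 0.03, -0.01, 0.02 and -0.04 in control and -0.13, -0.11, -0.02 and -0.18 in tacrolimus kidneys. Tacrolimus replicate 3 lay within the control range and the other 3 below it. The other detected probes were at -0.02, 0.03, 0.03 and -0.04 in control and at -0.08, -0.08, -0.0046 and 0.00047 in tacrolimus kidneys. Forward probes had a median of -0.13 and reverse probes of -0.10, and the medians by chromosome ran from -0.15 on chromosome 19 to -0.07 on the X chromosome.

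**Figure D1:**
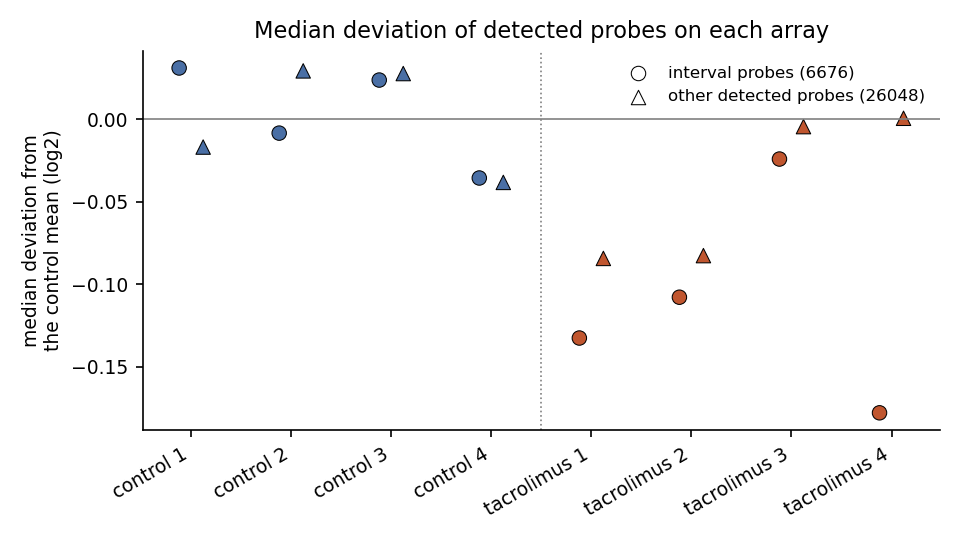
Median deviation of each array from the mean of the 4 control arrays (log2, vertical axis) over 6676 interval probes (circles) and 26048 other detected probes (triangles), with control arrays in blue and tacrolimus arrays in orange. The circles of tacrolimus replicates 1, 2 and 4 lie at -0.13, -0.11 and -0.18, below all control arrays, and replicate 3 lies at -0.02.

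The lower median was present across probe brightness and base composition. In each of 8 ranges of mean level, the median of the interval probes was below that of the other detected probes, at -0.10 against -0.04 for probes dimmer than -4 and -0.13 against -0.07 for probes brighter than 2. In each of 7 ranges of G and C content it was below as well, from -0.03 against -0.02 in probes of at most 35% to -0.15 against -0.12 above 60%. Probes away from genes, with no same-strand gene probe in the interval or within 5 kb, numbered 5639 and had a median of -0.12, with 644 lower and 126 higher at an unadjusted p under 0.05. The local background of the arrays also moved with the groups: its median was 22 intensity units on every control array and 19 to 20.5 on the tacrolimus arrays. Its part in the shift was not tested. With another background correction (normexp on the raw intensities, with an offset of 50) and the same scaling the median was -0.05 and 482 probes were lower at an unadjusted p under 0.05. The median of the other detected probes under that setting is not given here. Without tacrolimus replicate 3 the median was -0.14, and without control replicate 1 or control replicate 3 the count of lower probes was 447 or 444.

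The first called probe lay in chr9:24617562-24625262 on the reverse strand. Its levels were -3.96, -3.98, -3.92 and -3.79 in control and -3.06, -2.46, -2.75 and -2.87 in tacrolimus kidneys. All 4 tacrolimus arrays were above all 4 control arrays, a rise of 1.13 ± 0.13 (standard error, n = 4 per group; 2.19-fold; limma adjusted p = 0.033). The nearest gene probe was that of Cypt4, 190401 bases away on the opposite strand, at a difference of -0.10.

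The second lay in chr18:5808025-5818625 on the reverse strand. Its levels were -3.38, -3.43, -3.49 and -3.41 in control and -2.34, -1.49, -2.18 and -2.18 in tacrolimus kidneys, and again the groups did not overlap. It rose by 1.38 ± 0.18 (standard error, n = 4 per group; 2.60-fold; limma adjusted p = 0.0445). The other probe of the same interval and strand had a difference of -0.21 ± 0.09, and the 2 forward probes had -0.12 ± 0.10 and -0.21 ± 0.12. The rise was thus seen by 1 of 4 detected probes of the interval. The nearest gene was Zeb1, a zinc finger repressor of epithelial genes, 34365 bases away on the opposite strand at a difference of -0.12. Neither call is independent of single arrays: both were lost when any 1 control array, or tacrolimus replicate 3 or 4, was left out, and 1 of them was lost without tacrolimus replicate 1. With the replicate number, which is also the slide column, as a block, limma called 0 interval probes.

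Among interval probes whose groups did not overlap, the 10 higher ones with the lowest p included 4 at a single gene. These lay at Ifi207, an interferon-inducible gene of the PYHIN family, in the overlapping intervals chr1:175653557-175671940 and chr1:175654606-175672031, both on the reverse strand, which is also the strand of the gene. The probe printed above, which shares 42 bases with the Ifi207 probe, had levels of -1.999, -1.83, -1.89 and -2.14 in control and -0.70, -0.27, -1.05 and -1.21 in tacrolimus kidneys. Its difference was 1.16 ± 0.20 (limma adjusted p = 0.0677). The brighter of the 2 Ifi207 probes of the gene list had levels of -1.96, -1.79, -1.80 and -1.96 against -0.62, -0.20, -1.11 and -1.25 on the same arrays, a difference of 1.08 ± 0.22 (limma adjusted p = 0.0912). Tacrolimus replicates 1 and 2 were the highest and replicates 3 and 4 the lowest of their group in both. The dimmer Ifi207 probe of the gene list had a difference of 0.76 ± 0.35 (limma adjusted p = 0.362), and its groups overlapped. Its control replicate 2 was at -4.76, above all tacrolimus arrays (-5.37 to -4.87). In all, 9 interval probes had Ifi207 as their nearest gene, all on its strand and within 4039 bases, and their differences ran from 0.36 to 1.16. The groups did not overlap in 7 of the 9, against 1.14% higher without overlap over all interval probes and 3.89% over all probes tested. The 4 above were chosen for that, so the count is no separate support. Nor are the 4 separate measurements, since 2 of them overlap in position, at 175655046-175655105 and 175655065-175655124. Another of these probes, 12 bases from the gene probe, carries AATAAA.

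The other higher probes of that rule were single. In chr14:33923944-34003394, reverse strand, levels were -2.52, -2.90, -3.45 and -3.20 in control and -1.55, -1.24, -2.03 and -1.67 in tacrolimus kidneys, a difference of 1.39 ± 0.23 (limma adjusted p = 0.0672). In chr17:95150800-95180650, forward strand, they were -2.90, -3.31, -4.04 and -3.42 against -2.22, -1.99, -2.22 and -2.37, a difference of 1.22 ± 0.22. In chr18:82862340-82875566, forward strand, the difference was 1.08 ± 0.17, and in chr6:4841700-4847400, reverse strand, it was 0.49 ± 0.09. By that rule the groups did not overlap in any of these. The nearest gene probes, of Lrrc18, Mettl4, Zfp236 and Ppp1r9a, were between 47715 and 197958 bases away. All were on the opposite strand, with differences of -0.18 to 0.20.

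**Figure D2:**
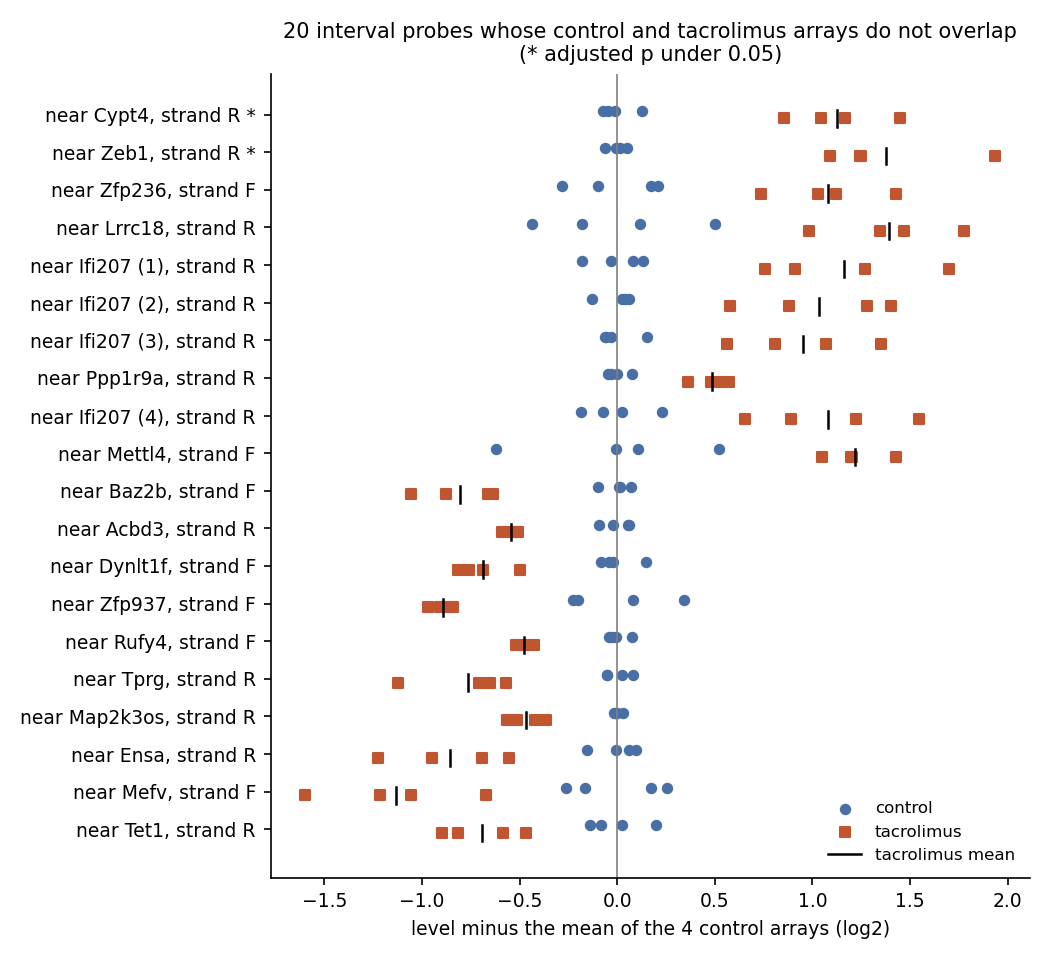
Levels of 20 interval probes on each control array (blue circles) and tacrolimus array (orange squares), as log2 difference from the mean of the 4 control arrays, with the tacrolimus mean as a black bar. Rows are named by the nearest gene and the strand, the 10 higher and the 10 lower probes with the lowest p are shown, and the 2 with an asterisk passed the adjusted threshold with means of 1.13 and 1.38.

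The 10 lower probes with the lowest p were likewise chosen among probes whose groups did not overlap. They did not pass the adjusted threshold, with limma adjusted p from 0.0559 to 0.0777. The lowest of these lay in chr2:60038543-60046318, forward strand, 188 bases from a Baz2b probe of the opposite strand. Its levels were -1.64, -1.59, -1.65 and -1.76 in control and -2.72, -2.32, -2.30 and -2.54 in tacrolimus kidneys, without overlap and with a difference of -0.81 ± 0.11. Baz2b, a bromodomain protein, had -0.09 ± 0.25. Within 1 kb of a Baz2b probe, 7 interval probes on the gene's own strand were all below 0, with a median of -0.42 (-0.58 to -0.17). The largest difference of the 10, -1.13 ± 0.21, was in chr16:3337275-3355950, forward strand, with -2.74, -2.84, -2.40 and -2.32 in control against -3.79, -4.17, -3.24 and -3.63 in tacrolimus kidneys.

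In chr2:150072436-150074859, forward strand, 3711 bases from Zfp937, a zinc finger gene of the same strand, levels were -3.57, -4.14, -4.11 and -3.83 against -4.77, -4.75, -4.88 and -4.82, a difference of -0.89 ± 0.14. Zfp937 itself had a difference of -0.66. In chr17:6602100-6615425, forward strand, near Dynlt1f, a dynein light chain gene, the difference was -0.69 ± 0.10. In chr16:25523780-25524279, reverse strand, it was -0.76 ± 0.13 and in chr3:95445094-95445564, reverse strand, near Ensa, an inhibitor of a mitotic phosphatase, -0.86 ± 0.15. In chr10:62347876-62374346, reverse strand, 45971 bases from Tet1, a 5-methylcytosine dioxygenase of the same strand, it was -0.69 ± 0.13, and Tet1 had 0.04. By the rule of choice, the control and tacrolimus arrays did not overlap in any of these 4.

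The remaining 3 of the 10 lower probes each carry an AC repeat. Their intervals were chr1:182686731-182709331, reverse strand, chr1:74084292-74138492, forward strand, and chr11:60728207-60745369, reverse strand. The first had levels of -3.19, -3.26, -3.11 and -3.12 in control and -3.68, -3.71, -3.76 and -3.71 in tacrolimus kidneys. The second had 0.02, -0.002, 0.12 and 0.04 against -0.42, -0.38, -0.47 and -0.47, and the third had 2.89, 2.91, 2.94 and 2.90 against 2.40, 2.49, 2.34 and 2.54. The spread within a group was small in all 3, and the differences were -0.54 ± 0.08, -0.48 ± 0.08 and -0.47 ± 0.08.

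The repeat was therefore looked up in all interval probes, a choice made after those sequences were seen, so it gets no test. An AC repeat means at least 10 bases of alternating A and C in either phase on the probe's strand, and a TG repeat, of alternating T and G, is its complement. An AC repeat was present in 16 detected interval probes (0.24%) and in 70 other detected probes (0.269%). Of the 16, 15 had a difference below 0, where 69.2% of all interval probes did, and the median was -0.29, against -0.11 over all interval probes. The 16 include the 3 probes that led to the search, so their values here and below are not independent of that choice. The values without these 3 were not computed. Of the 70, 64 were below 0, with a median of -0.40, and 49 were lower with an unadjusted p under 0.05.

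Probes with a TG repeat went the other way. Of 22 interval probes (0.33%), 18 had a difference above 0, with a median of 0.22. Of 154 other probes (0.591%), 133 were above 0, with a median of 0.26. On single arrays, the median deviation of the AC interval probes was 0.15, -0.10, 0.01 and -0.01 in control and -0.21, -0.23, -0.28 and -0.34 in tacrolimus kidneys, without overlap. That of the TG interval probes was -0.17, -0.01, 0.15 and 0.01 in control and -0.04, 0.30, 0.56 and 0.06 in tacrolimus kidneys, so tacrolimus replicates 2 and 3 alone exceeded all control arrays. Interval probes with an AG repeat had a median of 0.17 (12 probes) and those with a TC repeat of -0.28 (14 probes). Over 17 alternative fits the medians kept their signs, from -0.35 to -0.14 for AC and from 0.10 to 0.31 for TG.

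**Figure D3:**
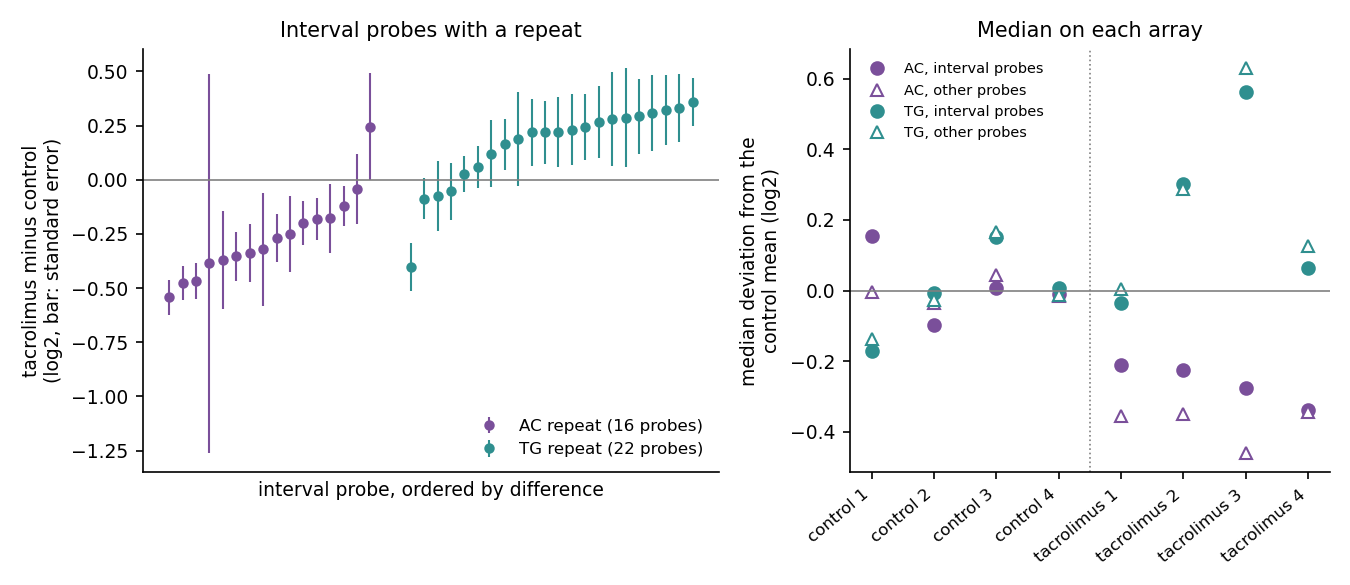
Left, difference between tacrolimus and control (log2, with standard error) of the 16 interval probes with an AC repeat and the 22 with a TG repeat, in order of size. Right, median deviation from the control mean on each array for the same probes (filled circles) and for the 70 and 154 other detected probes with the repeat (open triangles): the AC medians are below 0 on all 4 tacrolimus arrays, and the TG medians are highest on tacrolimus replicates 2 and 3.

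Some of these repeats are the 2 strands of 1 place. There were 5 overlapping pairs in which the probe of 1 strand has the AC repeat and that of the other strand the TG repeat. In each the AC probe had a difference below 0 and the TG probe one above it. At chr1:182686731-182709331, where the pair printed above overlaps by 59 bases, the reverse AC probe had -0.54 ± 0.08 and the forward TG probe 0.29 ± 0.17. At chr14:78214602-78225827 the values were -0.37 ± 0.23 and 0.19 ± 0.22. Without all AC and TG probes, the median of the remaining 6638 interval probes was -0.11, with 741 lower and 165 higher at an unadjusted p under 0.05.

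Where an interval probe lay close to a gene probe on the same strand, both had similar differences. Across 339 interval probes within 1 kb of a same-strand gene probe, which met 104 genes, Pearson's r between the differences was 0.64. At 1 to 5 kb it was 0.45 (474 probes), at 5 to 20 kb 0.15 (914 probes), at 20 to 100 kb 0.04 (1375 probes) and beyond 100 kb 0.06 (691 probes). With the gene probe on the opposite strand, r was 0.24 within 1 kb (125 probes), 0.11 at 1 to 5 kb (323 probes) and -0.0047 at 5 to 20 kb (652 probes). It was 0.00084 at 20 to 100 kb (1165 probes) and 0.06 beyond 100 kb (558 probes). These values describe pairs that share arrays, and several probes share a gene, so they carry no p. With 1 median per gene, r was 0.74 over the 104 genes, and the median of the interval probes had the sign of the gene in 78. The range within 1 kb includes interval probes with a gap of 0 bases to the gene probe, as at Ifi207, Ccl25, Ermard and Snx6. At Ifi207 such a probe shares bases with the gene probe, so it is not a separate measurement. The values of r and the count of signs without such probes were not computed.

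The 12 of these genes with the largest differences, chosen by size, show what the pairs are. In 11 of the 12 the median of the interval probes had the sign of the gene, though at Snx6, Crnde and Zfp961 not every probe did. Snx6, a sorting nexin of the retromer, had 0.67 ± 0.26 with a median of 0.64 over its 3 interval probes (-0.41 to 0.79). Crnde, a long noncoding RNA, had 0.58 ± 0.16 with 0.24 over 5 (-0.12 to 0.32). Herc6, an interferon-inducible ubiquitin ligase, had 0.45 ± 0.15 with 0.39 over 2. Ccl25, a chemokine, had -0.46 ± 0.16 with -0.55 over 3, and Plekha8, a lipid transfer protein, had -0.38 ± 0.10 with -0.40 over 7. Mirg, the microRNA-bearing transcript of the Meg3 cluster, had -0.83 ± 0.47 with -0.32 for 1 probe. Nckap1 was the exception, at -0.40 ± 0.12 with 0.10 for 1 probe. None of these gene probes was called by limma.

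**Figure D4:**
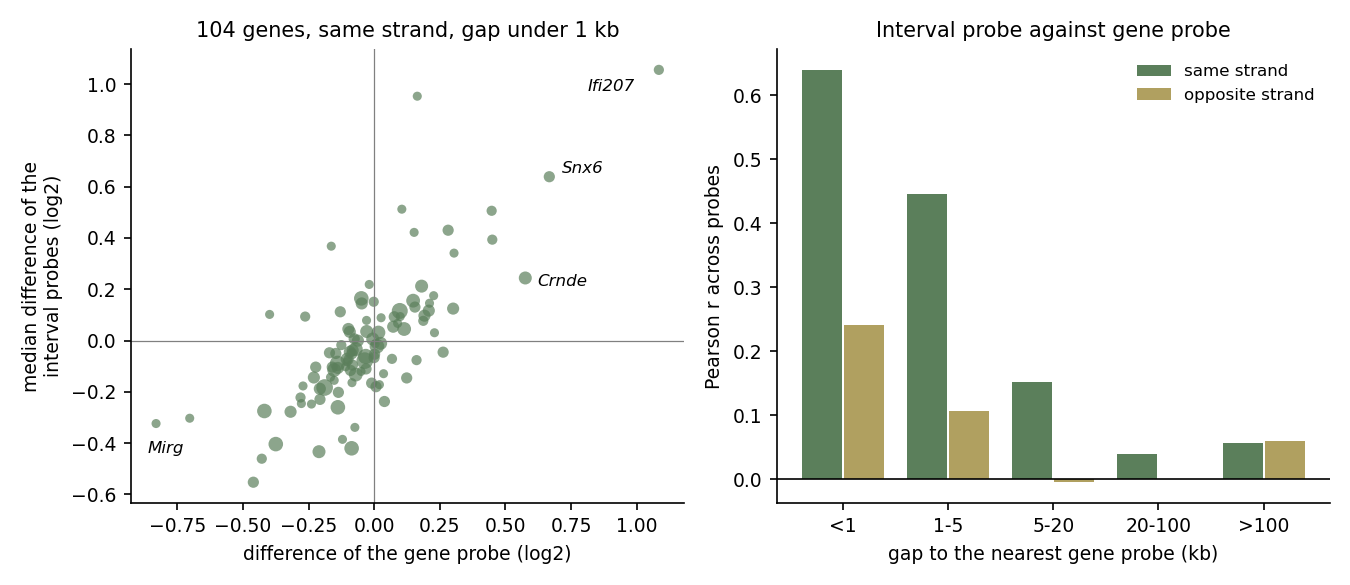
Left, median difference of the interval probes (log2, vertical axis) against the difference of the gene probe (horizontal axis) for 104 genes with interval probes on the same strand within 1 kb, with larger points for more probes. Right, Pearson's r across probes by the gap to the nearest gene probe in kb. From the nearest range to the farthest, same-strand values are 0.64, 0.45, 0.15, 0.04 and 0.06. Opposite-strand values are 0.24, 0.11, -0.0047, 0.00084 and 0.06.

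Both strands could be compared in 606 intervals, 56.8% of the 1067 that carry probes of both strands. For each interval the mean level of the reverse probes was subtracted from that of the forward probes on every array, and limma tested whether this strand difference differed between tacrolimus and control, with adjustment over the 606 intervals. It did in 3 intervals (0.495%), and 71 (11.7%) had an unadjusted p under 0.05. The strands of an interval were only weakly related: r between forward and reverse differences was 0.11 across the 606 intervals, 353 had both strands below 0, 42 had both above 0 and 211 had opposite signs. The median was -0.14 for forward and -0.11 for reverse strands.

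The first of the 3 was chr6:57583950-57624216, whose probes lay 37 to 97 bases from that of Herc6. The forward minus reverse values were 3.13, 3.40, 3.105 and 3.19 in control and 4.04, 4.11, 4.01 and 3.995 in tacrolimus kidneys, without overlap, a strand difference of 0.83 ± 0.12 (limma adjusted p = 0.0267). The forward strand, which is that of Herc6, was at 0.39 and the reverse strand at -0.44. One of the forward probes overlaps the reverse probe.

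The second was chr14:33923944-34003394, where the values were 1.48, 1.58, 1.70 and 1.33 in control and 0.80, 0.70, 0.48 and 0.66 in tacrolimus kidneys, a strand difference of -0.86 ± 0.14 (limma adjusted p = 0.0267). Its 2 forward probes averaged -0.42 and its 6 reverse probes 0.44. The differences of the reverse probes were not alike: 4 of them ran from -0.31 to 0.54, and the other 2, which lie side by side, had 1.39 and 1.14. The third was chr4:3406175-3443875, with -0.24, -0.18, 0.10 and -0.02 in control and -0.83, -0.93, -0.70 and -0.87 in tacrolimus kidneys, a strand difference of -0.75 ± 0.13 (limma adjusted p = 0.0437). There the reverse probe was at 0.72 ± 0.23 and the forward probe at -0.03 ± 0.17. All 3 calls were lost when any 1 of the 8 arrays was left out, and a block on replicate number left 0 intervals called.

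Of the 3 intervals next in order of p, chr15:77164450-77201325, 23040 bases or more from the apolipoprotein L gene Apol7a on the opposite strand, had 5 forward probes, and in each of them the groups did not overlap. Their mean levels were -2.99, -2.96, -3.27 and -3.01 in control and -2.52, -2.29, -2.46 and -2.67 in tacrolimus kidneys, with differences of single probes from 0.21 to 0.77. The reverse probe was at -0.18 ± 0.08. The strand difference was 0.75 ± 0.15 (limma adjusted p = 0.0612). In chr18:5808025-5818625, which holds a called probe, it was -0.75 ± 0.14, and in chr9:51905865-51911474, whose reverse probe carries a TG repeat, -0.62 ± 0.14.

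**Figure D5:**
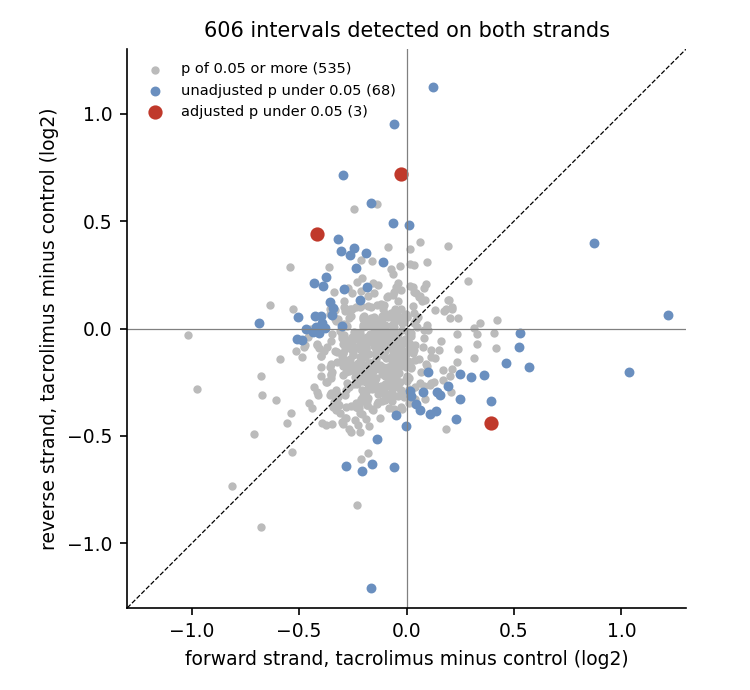
Difference between tacrolimus and control (log2) of the reverse strand (vertical axis) against that of the forward strand (horizontal axis) in 606 intervals, coloured by the p of the strand difference, with the dashed line marking equal differences. The 3 red points are the intervals with an adjusted p under 0.05, and most points lie below 0 on both axes.

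In 19 pairs a forward and a reverse probe were exact complements over all 60 bases, so that the share of G and C together was the same. Both were below 0 in 5 pairs, both above 0 in 3, and the signs were opposite in 11. In 6 pairs 1 strand alone had an unadjusted p under 0.05 and in none did both. In chr4:129497990-129515290 the forward probe of such a pair had -2.66, -2.43, -2.45 and -2.39 in control and -2.41, -2.17, -2.12 and -1.87 in tacrolimus kidneys, a difference of 0.34 ± 0.13, while the reverse probe had -0.007 ± 0.17. In chr16:59557120-59602070 it was the reverse probe that differed, by 0.49 ± 0.12, with 0.12 ± 0.17 for the forward probe.

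Several probes of 1 interval and strand served as a check within an array, though they share their RNA and are not replicates. In 1008 combinations of interval and strand with at least 3 detected probes, all probes were below 0 in 403, all above 0 in 135 and mixed in 470. The most probes were 10, held by 11 combinations. Of these, the 5 with the largest median differences in either direction are given, so their values were part of the choice. They differed in direction. In chr4:129497990-129515290, forward strand, near the phosphatase gene Ptp4a2, all 10 were above 0, from 0.06 to 0.34. On the forward strand of chr16:43623581-43642715, near Zbtb20, a zinc finger repressor, all 10 were below 0, from -0.33 to -0.10, and on its reverse strand from -0.55 to -0.06. In chrX:90997595-91009570, reverse strand, near Pdk3, a pyruvate dehydrogenase kinase, the median was -0.30.

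The fifth, chr19:5771425-5848475 on the forward strand, lies opposite to the Neat1 gene, named NEAT1 on the array. Its 10 probes were 47 to 2339 bases from the NEAT1 probe, and 9 were below 0, with a median of -0.31 and 7 lower at an unadjusted p under 0.05. In 1 of the 7, levels were 2.10, 2.21, 2.00 and 2.02 in control and 1.95, 1.75, 1.42 and 1.46 in tacrolimus kidneys, and the groups did not overlap.

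In 19 of the 1008 combinations (1.88%) every probe had an unadjusted p under 0.05, 9 lower and 10 higher, and these are named after their values were seen. In 3 of the 19 the groups did not overlap in any probe. The 19 are not all separate places: on the forward strand chr10:83185606-83225506 lies within chr10:83181374-83249774, and both are among the higher ones. The matching share over other probes is not given here. The lower ones included chr15:36800254-36809571, reverse strand, where the mean over 3 probes was -2.20, -1.51, -2.34 and -2.27 in control and -2.61, -2.71, -3.06 and -2.72 in tacrolimus kidneys. They also included both strands of chr6:54591416-54597566 at Plekha8, with medians of -0.42 and -0.39, and 5 probes of chr19:59498190-59531390, reverse strand, with a median of -0.38, near the noncoding gene Emx2os at -1.03. In chr10:69844350-69844784, forward strand, the mean was 0.16, 0.44, 0.68 and 0.40 against -0.85, -0.68, -0.62 and 0.43, so tacrolimus replicate 4 stood with the controls. The higher ones included the 2 intervals at Ifi207, that near Apol7a, and chr12:55844075-55898175 at Snx6, where control replicates 1 and 2 were at 0.69 and 0.67 and all other arrays between 1.95 and 2.89.

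A further higher combination, chr2:128211990-128215223 on the reverse strand, lies close to an interval probe that was well above background on the tacrolimus arrays alone. Its mean levels were -3.87, -3.72, -4.48 and -3.99 in control and -3.47, -3.16, -3.18 and -3.64 in tacrolimus kidneys, with a median difference of 0.68. The neighbouring probe, in chr2:128217275-128217972 on the reverse strand, had -6.83, -7.42, -7.47 and -5.92 in control, not well above background, and -5.53, -5.36, -3.95 and -3.997 in tacrolimus kidneys. It was at least 2.52-fold higher under tacrolimus, with control arrays below their lowest level well above background counted at that level. That level is no strict limit. Control replicate 4, at -5.92, lay above its own of -6.08 and was not well above background. The probe entered the fit only through the tacrolimus arrays, so its p is not a fair test and is not given.

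In all, 9 of the 16181 interval probes were well above background on every array of 1 group and on none of the other. Of these, 3 were detected under tacrolimus and 6 in control. They are among 347 interval probes that were well above background on exactly 4 arrays. The matching count over all probes is not given here, so the 9 are not read as a trait of the intervals. The 8 with the largest bounds were at least 1.42-fold to 2.52-fold apart. Besides the one above, chr13:98571741-98603323, reverse strand, was at least 2.22-fold higher under tacrolimus, with 1 tacrolimus array at -3.50 and the other 3 between -5.52 and -5.13. In control kidneys, chr3:51990494-51991875, forward strand, was at least 1.75-fold higher, and chr1:182180931-182186106, forward strand, with -6.29, -5.29, -4.79 and -5.44 in control against -7.02, -7.41, -8.36 and -7.51, at least 1.59-fold. None of the 8 was called, but they entered the fit only through the group in which they were high, so that test decides nothing.

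The most variable interval probes had single arrays, or pairs of arrays, far below the others. Of the 6 with the largest SD over control arrays, both probes of chr3:96074625-96086375, forward strand, at the histone gene Hist2h2bb had 1 low array in each group. The first had levels of 0.52, -0.53, -5.29 and 0.31 in control and 0.13, 0.18, -0.08 and -5.81 in tacrolimus kidneys. In chr9:81537835-81583227, reverse strand, control replicates 1 and 4 were at -3.98 and -4.19 with replicates 2 and 3 at -0.78 and -0.96. In chr1:52706748-52712402, reverse strand, the same controls were low, at -3.45 and -4.42 with the others at -1.29 and -1.003. The 1 probe of the 6 with an unadjusted p under 0.05 lay in chr12:55844075-55898175 at Snx6, with -2.04, -2.29, 2.00 and 1.73 in control and 2.52, 1.61, 2.70 and 2.95 in tacrolimus kidneys, where the groups overlapped.

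MicroRNA hairpins of RefSeq shared at least 30 bases with 5 interval probes, 4 in sense and 1 in antisense, and none of the 5 was called. The let-7c-2 probes printed above measure its primary transcript and not the mature microRNA. The 5p probe had -3.59, -3.63, -3.67 and -3.62 in control and -3.37, -3.77, -3.42 and -3.30 in tacrolimus kidneys, a difference of 0.16 ± 0.11. The 3p probe had -4.23, -3.95, -4.23 and -4.55 against -4.18, -2.57, -3.30 and -4.26, a difference of 0.66 ± 0.36, with tacrolimus replicates 2 and 3 above all other arrays. The groups overlapped in both. A probe over Mir410, within chr12:110973190-110987668 on the forward strand, had a difference of -0.30 ± 0.12, one over Mir8110 had -0.19 ± 0.11, and one antisense to Mir6516 had -0.36 ± 0.14.

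The long noncoding RNAs that the array names lay on both sides of 0. Of 37 such genes tested, none was called, 4 had a higher level and 1 a lower one with an unadjusted p below 0.05, and the median was 0.05, beside a median of -0.06 and shares of 6.42% and 7.88% over all probes tested. Lockd, transcribed next to the cell cycle inhibitor gene Cdkn1b, had 1.05 ± 0.25, Snhg5, a small nucleolar RNA host, 0.69 ± 0.18, Meg3 0.83 ± 0.23 and Crnde 0.58 ± 0.16, while Dancr had -0.19 ± 0.08. Of 25 genes of the nuclear exosome and its adaptors, none was called, and 1 was higher and 2 were lower at an unadjusted p under 0.05. Ncbp1, of the nuclear cap-binding complex, had -0.51 ± 0.14, Zfc3h1, of the poly(A) tail exosome targeting complex, -0.25 ± 0.10 and Exosc8, an exosome core subunit, 0.28 ± 0.11. Of 11 genes of Polycomb repressive complex PRC2, none had an unadjusted p under 0.05, with a median of 0.04 and Ezh2, its methyltransferase, at 0.12 ± 0.14.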

How the data were processed

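Total RNA of 8 kidney samples (0.2 ug each, RIN 9, per the labels) was labelled with Cy3 and hybridised to 1-colour Agilent arrays. The intensity values were extracted by the authors in Feature Extraction (version 10.7.3.1 in the deposited headers), and the processed ones are background-subtracted. The deposited value table holds log2 values whose ranks follow the raw median intensities of the same array, with column medians of 6.30 to 6.32 and a normalization not given in the sources used here. The submitters' processing notes name limma.

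Control features (3671 per array) and outlier spots were left out, spots of a probe were averaged, and each array's 75th percentile was subtracted on the log2 scale. The 36489 probes well above background on at least 4 arrays were fitted with limma 3.58.1 in R 4.3.3 (two-sided, Benjamini-Hochberg adjustment, threshold 0.05), with Python 3.11.15 for the rest. The number of arrays limits the precision. On simulated data with 36489 probes for this comparison, 73% of 100 probes changed by 1 and 94% of 100 changed by 2 on the log2 scale were recovered, and 7 of 174 calls were on unchanged probes.

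Samples were grouped by their labels. Named probes are those called and the 10 in each direction with the lowest p and no overlap between groups. Those highest in level or in control SD, those detected in 1 group only and those next to the detection rule were also named. Intervals were ranked by the strand test or by number of probes, with ties in number broken by the size of the median difference. Members and lists were chosen with earlier results of these data known. Alternatives covered normalization, background correction, filters, weights for arrays, a block on replicate number, and fits with arrays left out. Gene names were updated through RefSeq accessions (GRCm38.p6). Positions are those of the files (mm9), and no genome of that build was used here.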

Additional observations from a re-analysis of the deposited data

Results flagged for a closer look

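In 238 groups of 4 arrays, over 119 probes that the text names or counts, 15 (6.3%) held an array that stood apart from the other 3 by more than Dixon's critical value. Chance gives about 1 in 20 where groups are not chosen by their values. Some of these probes were chosen for a large SD over controls or for a miss on a single array, so the share cannot be compared with chance.

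In chr1:175653557-175671940, reverse strand, at Ifi207, control replicate 2 was at -2.55 with the others at -2.76 to -2.73. In chr15:77164450-77201325, forward strand, control replicate 3 was at -1.79 with the others at -1.32 to -1.25. In chr15:34078479-34079439, forward strand, control replicate 3 was at -4.79 with the others at -5.76 to -5.68. In chr4:129497990-129515290, forward strand, control replicate 4 was at -1.87 with the others at -2.17 to -2.12. In chrX:90997595-91009570, reverse strand, tacrolimus replicate 1 was at -3.25 with the others at -2.36 to -2.27.

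Tacrolimus replicate 4 stood apart in 5 groups. In both probes at Hist2h2bb it was at -5.81 and -5.55, with the others at -0.08 to 0.18 and -1.51 to -1.34. In chr16:43623581-43642715 it was at -0.93 on the reverse strand (others -0.41 to -0.35) and at 1.5 on the forward strand (others 0.94 to 1.04). In chr19:5771425-5848475, forward strand, it was at -1.01 in 1 probe (others -2.73 to -2.51), and in another control replicate 4 was at -1.96 (others -1.71 to -1.66).

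Tacrolimus replicate 2 stood apart at -2.35 in chr9:81537835-81583227, reverse strand (others -0.91 to -0.72), at -2.18 in chr1:52706748-52712402, reverse strand (others -1.26 to -1.08), and at -7.35 in chr13:9185198-9185778, forward strand (others -3.22 to -3.13). Control replicate 2 was at -5.94 in chrX:47890565-47915775, forward strand (others -3.34 to -3.0).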

How the results depend on the processing

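The 2 called interval probes were among those called under quantile normalization (4 in all), normexp with the 75th percentile (19) or quantile scaling (9), the deposited table (10), robust estimation with a trend on intensity (15), weights for arrays (18), a filter on all 8 arrays (8), and members chosen as positive and significant on all 8 arrays (4) or well above background on at least 4 (4). None was called without a filter, or without control replicate 2 and tacrolimus replicate 4 together. Leaving out 1 array gave 0 to 2 calls. The count of lower probes at an unadjusted p under 0.05 (748) was 1263 under median scaling, 482 under normexp with the 75th percentile, 420 with 1 probe per interval name, 409 without control replicate 2 and tacrolimus replicate 4, and 444 to 991 without 1 array. That of higher probes (166) was 72 with 1 probe per interval name and 112 to 201 without 1 array. The median difference (-0.11) was -0.16 under median scaling, -0.045 and -0.076 under normexp with the 75th percentile and quantile scaling, and -0.145 to -0.088 without 1 array. Strand calls (3) were 0 under normexp with the 75th percentile, 1 under normexp with quantile scaling, 0 in the deposited table, 5 with array weights and 0 to 0 without 1 array. The difference in detected share (-0.16 percentage points) was -1.43 to 1.59 without 1 array, above 0 when control replicate 1 (1.59), tacrolimus replicate 2 (0.15) or tacrolimus replicate 4 (1.02) was left out. The cause of these changes was not tested. Of the 28 probes that were called, had the lowest p or were detected in 1 group only, none changed direction under the alternatives run, and the other named probes were not followed singly.

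Same-numbered samples correlated at 0.15, -0.00093, 0.13 and 0.04 in their deviations from the group means, and controls 1, 3 and 4 correlated best with the tacrolimus sample of their own number while control 2 did not. These samples share a slide column as well as a number, and the labels name no shared animal or batch. With the replicate number as a block, 0 interval probes were called, with 880 lower and 203 higher at an unadjusted p under 0.05, and 0 intervals had a strand call.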
